A study of Mus musculus with 12 samples.

Results

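Cxcl9-high macrophages were followed among CD45+ cells profiled by scRNA-Seq from tumors of MC38, a colon carcinoma line grown under the skin of C57BL/6 mice. The 4 groups of 3 mice received vehicle or the EZH2 inhibitor PF-06821497 (EZH2i) at 100 mg/kg, injected daily for 7 or 16 days, and all tumors were taken on day 17. CD45 microbeads enriched the leukocytes, and libraries were made with a 10x Genomics 3' v3 kit. The deposited matrix pools the 12 libraries under the numbers 1 to 12. No label or file header ties a number to a mouse, so no library was assigned to a treatment, no EZH2i effect was tested, and values are given per library without a group.

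The cells were chosen by their own transcript counts, counted as unique molecular identifiers (UMIs). A barcode was kept when it held over 200 but under 5000 genes and when mitochondrial genes made up no more than 10% of its UMIs. It was gated as a macrophage with at least 2 UMIs of Adgre1 and Csf1r together, none of Cd3d, Cd3e or Cd3g, and none of Mki67 or Top2a. A gated macrophage was called Cxcl9-high with at least 5 Cxcl9 UMIs and fewer than 2 Arg1 UMIs per 10000 UMIs of the cell. This gave 6299 cells of the 128912 kept, or 4.89% (exact 95% interval 4.77 to 5.01%, counting error only), and 11.7% of the 53868 gated macrophages. The other gated macrophages were 19324 Cxcl9-low Arg1-low cells, 23069 Arg1-high Cxcl9-low cells (called Arg1-high below) and 5176 cells above both limits.

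CXCL9 is a chemokine that interferon gamma (IFN-γ) induces in many cell types. It binds CXCR3 on activated T and NK cells and draws them into inflamed tissue and tumors, and macrophages and dendritic cells are its main sources there. Adgre1 encodes F4/80 and Csf1r the receptor for the growth factor CSF1, both hallmarks of mouse macrophages. Arginase 1, encoded by Arg1, degrades arginine and is commonly used to mark macrophages of an alternative or hypoxic state. EZH2 is the catalytic subunit of PRC2, which writes the repressive mark H3K27me3, and the promoters of Cxcl9 and Cxcl10 are known targets of that mark in tumor cells.

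The promoters shown are those of Cxcl9, the gene that chose the cells, of its neighbour Cxcl10, and of Gbp2, Gbp5 and Serpina3g, which were among the genes with the highest ratios below. Each is the 250 bases before the start in RefSeq, read in the direction of transcription on GRCm38.p6. Capitals mark matches, on either strand, to a gamma-activated sequence, GAS (TTCNNNGAA), or to the core of an interferon-stimulated response element, ISRE (GAAANNGAA), and the letters of the 2 motifs can overlap.
Cxcl9, chr5:92328080-92328329, minus strand: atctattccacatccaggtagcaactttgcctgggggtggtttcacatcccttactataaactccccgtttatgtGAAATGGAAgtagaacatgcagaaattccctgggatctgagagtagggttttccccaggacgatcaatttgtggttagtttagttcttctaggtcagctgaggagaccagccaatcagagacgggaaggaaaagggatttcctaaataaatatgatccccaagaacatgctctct
Cxcl10, chr5:92348890-92349139, minus strand: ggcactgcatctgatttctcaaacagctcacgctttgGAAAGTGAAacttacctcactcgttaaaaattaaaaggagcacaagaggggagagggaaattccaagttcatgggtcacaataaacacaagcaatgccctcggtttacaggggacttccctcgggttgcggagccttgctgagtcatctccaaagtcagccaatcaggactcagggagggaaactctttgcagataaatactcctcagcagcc
Gbp2, chr3:142620413-142620662, plus strand: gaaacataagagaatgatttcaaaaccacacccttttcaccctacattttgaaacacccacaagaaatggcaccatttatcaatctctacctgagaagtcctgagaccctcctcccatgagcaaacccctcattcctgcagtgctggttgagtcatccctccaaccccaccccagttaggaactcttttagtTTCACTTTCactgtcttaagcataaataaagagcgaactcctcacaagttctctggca
Gbp5, chr3:142496684-142496933, plus strand: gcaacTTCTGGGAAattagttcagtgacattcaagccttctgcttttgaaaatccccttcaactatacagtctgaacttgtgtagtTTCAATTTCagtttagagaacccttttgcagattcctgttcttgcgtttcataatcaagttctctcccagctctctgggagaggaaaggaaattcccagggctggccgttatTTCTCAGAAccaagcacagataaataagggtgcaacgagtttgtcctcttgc
Serpina3g, chr12:104235897-104236146, plus strand: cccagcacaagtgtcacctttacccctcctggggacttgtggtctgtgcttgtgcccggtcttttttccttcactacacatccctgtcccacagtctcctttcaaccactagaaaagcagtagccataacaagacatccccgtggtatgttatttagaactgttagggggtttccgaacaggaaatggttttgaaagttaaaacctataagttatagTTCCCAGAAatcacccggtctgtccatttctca

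The windows of Cxcl9, Cxcl10 and Gbp2 held 1 ISRE core each, that of Serpina3g held 1 GAS motif, and that of Gbp5 held 2 GAS motifs and 1 ISRE core. Of all 32851 promoter windows of this length, 7.02% held the GAS motif, 7.13% the ISRE core and 13.4% either. A window was found for 8 of the 15 genes with the highest ratios against Cxcl9-low Arg1-low macrophages, and 7 of these 8 genes held either motif. Among the 15 genes with the lowest ratios, 12 had a window and 2 of them held either motif. These are counts of genes, over 9 and 18 windows, and a gene with more windows has more places for a match. The shares above are of single windows, so they are not on the same scale. Related neighbours such as Serpina3f and Serpina3g were counted separately. A match is a run of letters, and binding was not measured here.

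The cells held macrophage transcripts at levels like those of Cxcl9-low Arg1-low macrophages, with monocyte transcripts beside them. The summed level of 10 macrophage markers, without the 2 genes of the rule, ranged from 30094 to 59612 CPM (UMIs of a gene for each 1000000 UMIs) in Cxcl9-high macrophages (median 42326) and from 32113 to 59138 in Cxcl9-low Arg1-low macrophages (median 44828). Abundant genes weigh most in this sum, such as Apoe at 10098 to 30376 CPM in Cxcl9-high macrophages. By the log2 ratios defined below, 3 of the 10 were higher and 3 lower in every library, against 4.32% and 5.43% of all genes. Their median was -0.07, with Fcgr1 (0.18) highest and Itgam (-0.44) lowest. For a view at equal depth, 2000 UMIs were drawn at random from each cell and shallower cells were left out. The cells were gated and grouped again on the drawn UMIs, which left 32056 gated macrophages, 5558 of them Cxcl9-high. These had to hold at least 2 drawn UMIs of Adgre1 and Csf1r, and are a set chosen anew rather than the 6299 members. Of these Cxcl9-high macrophages, 98.7% held a UMI of C1qa, C1qb or C1qc, the chains of complement C1q that mark tissue macrophages. The monocyte gene Ly6c2 was found in 10.2% (exact 95% interval 9.45 to 11.1%), or 2.70 to 23.7% over libraries, and 9.36% held both. In Cxcl9-low Arg1-low macrophages Ly6c2 was found in 11.9%. Ccr2, another monocyte marker, was found in 23.7% of Cxcl9-high and 21.4% of Cxcl9-low Arg1-low macrophages. At the same depth, 97.5% of Cxcl9-high macrophages and 28.6% of T cells held a C1qa UMI. Ly6c2, which T cells can express themselves, was found in 27.2% of T cells. At the cells' own depth the 7 monocyte markers summed to 207 to 2868 CPM (median 753) in Cxcl9-high macrophages. This was the largest sum outside the macrophage list, against 372 to 2433 CPM (median 874) in Cxcl9-low Arg1-low macrophages.

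The summed level of 6 T cell markers outside the rule was 2.95 to 31.5 CPM (median 7.43), against 5.01 to 30.9 CPM in Cxcl9-low Arg1-low macrophages (median 11.5) and 2563 CPM in 6414 gated T cells. The 6 NK cell markers summed to 0 to 19.2 CPM (median 2.53) and the 5 B cell markers to 62.7 to 117 CPM (median 97.3). Nearly all of the B cell sum was Ighm, the heavy chain of IgM, while Cd79a and Ms4a1 had medians under 1 CPM. Neutrophil markers summed to 46.6 to 238 CPM (median 71.5), against 57.4 to 899 CPM in Cxcl9-low Arg1-low macrophages (median 161). The 8 dendritic cell markers summed to 7.10 to 72.0 CPM (median 21.3), against 8.18 to 73.4 CPM (median 18.6). The 6 tumor or stromal markers summed to 8.77 to 193 CPM (median 19.6), against 7.19 to 39.7 CPM (median 14.6). The part of these markers in the results below was not tested, beyond the stricter removal of cells given for some genes.

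Cxcl9 itself, which the rule used, is given as a description. A Cxcl9-high macrophage held a median of 7 Cxcl9 UMIs, with 4 at the lower and 16 at the upper quartile, or 14.5 per 10000 UMIs (quartiles 8.25 and 27.3). The highest reached 220.9 per 10000. There were 623 members at 5 to under 6 per 10000 and 653 Arg1-low cells just outside at 4 to under 5, and 325 members (5.16%) rested on 1 Cxcl9 UMI. At the Arg1 limit, 822 members lay at 1 to under 2 per 10000 and 931 Cxcl9-high cells at 2 to under 3. At the macrophage limit, 1472 members held exactly 2 UMIs of Adgre1 and Csf1r, and 1634 cells with 1 such UMI met all other limits. A further 2951 cells were left out for an Mki67 or Top2a UMI and 309 for a Cd3 UMI.

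Cxcl9 UMIs were found in a larger share of gated macrophages than of the other cells gated here. Those other cells had to hold no Adgre1 or Csf1r UMI, and dendritic cells were not among them. The free RNA of the suspension was not measured. At 2000 UMIs per cell, 29.0% of all gated macrophages held a Cxcl9 UMI, against 6.65% of T cells, 7.47% of NK cells, 3.76% of neutrophils and 2.35% of B cells. Over the libraries the share in gated macrophages ran from 3.97 to 43.6% (median 23.9%) and that in T cells from 0 to 19.4% (median 2.90%). Library 6 gave the highest share in T cells, 19.4%, beside 35.1% of its gated macrophages. At their own depth, with a median of 2778.5 UMIs in T cells and 4958 in Cxcl9-high macrophages, 8.23% of T cells held a Cxcl9 UMI and 3.52% reached the limit of the rule.

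The libraries differed in how many Cxcl9-high macrophages they held. They gave 512, 673, 350, 40, 1747, 1776, 176, 118, 570, 61, 172 and 104 cells in the order of their numbers, and libraries 5 and 6 together gave 55.9%. The share among gated macrophages was 13.3, 12.9, 10.2, 0.851, 18.5 and 14.5% in libraries 1 to 6 and 5.12, 5.08, 19.3, 3.20, 6.52 and 6.08% in libraries 7 to 12. Library 9 was thus the highest and library 4 the lowest, with exact 95% intervals of 17.9 to 20.7% and 0.609 to 1.16%, and the intervals of many others did not overlap. The limit asks for fewer Cxcl9 UMIs in a shallow cell. The shares were therefore computed again in cells gated anew at 2000 UMIs per cell, where 1 Cxcl9 UMI meets the limit. They were then 1.79 to 26.4% (median 12.5%, from 8.36%), with library 4 still lowest and library 5 highest.

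**Figure D1:**
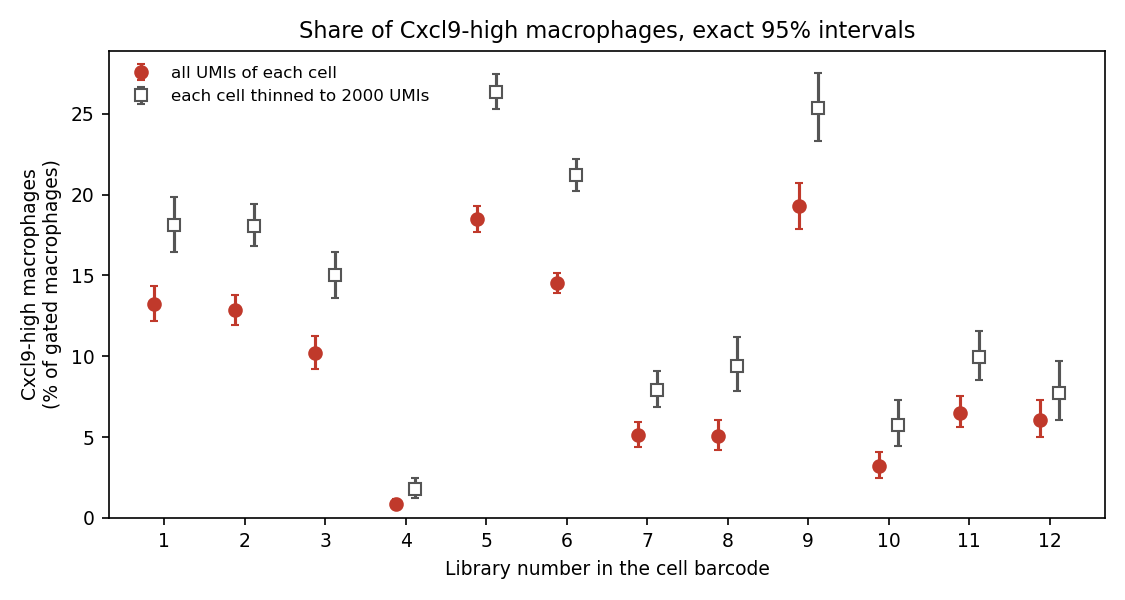
Percent of gated macrophages that were Cxcl9-high in each library, at the cells' own depth (filled) and thinned to 2000 UMIs and gated again (open). Bars are exact 95% binomial intervals. Library 4 was lowest on both scales, at 0.851% and 1.79%, and library 9 was highest at 19.3% at the cells' own depth.

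Gated macrophages of libraries 1 to 6 held Y chromosome transcripts (126 to 214 CPM) and those of libraries 7 to 12 held none. The study describes its mice as female, and the source of these transcripts was not tested. The 2 sets of libraries may also differ in treatment or its length, which cannot be told apart here. Median depth in Cxcl9-high macrophages ranged from 2312 UMIs in library 6 to 18583.5 in library 12. Library 4 also held the fewest T cells, 35, and is left out of the gene comparisons below, which asked for at least 50 cells. Of all barcodes, 4547 (3.23%) had a sequence found in more than 1 library, 213 of them members, and 8 barcode sequences belonged to members of more than 1 library.

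The Arg1 condition cut across the Cxcl9-high cells. Of gated macrophages, 39.2 to 78.5% were Arg1-high (median 50.9%). Cxcl9-high cells made up 2.59 to 39.3% of the Arg1-low cells (median 22.3%) and 1.46 to 31.7% of the Arg1-high cells (median 14.4%). The share was higher on the Arg1-low side in all 12 libraries, which is a description, since the rule used both genes. The Arg1 limit, too, is met by fewer UMIs in a shallow cell. At equal depth an Arg1 UMI was also found in 6.41% of T cells and 16.9% of neutrophils. The part of depth and free RNA in these shares was not tested. From 21.8 to 73.7% of Cxcl9-high gated cells were also Arg1-high (median 40.3%), most in library 7, where Arg1-high cells were 78.5% of the gate.

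The share of Cxcl9-high macrophages was set against Ifng transcripts and the share of T and NK cells. Ifng rested on 9 UMIs in library 4, 22 in library 12 and 57 in library 10, and on up to 431 in library 8 (median 183). Pearson's r with Ifng CPM in gated T and NK cells was 0.17 over 12 libraries (permutation p = 0.595, adjusted 0.684) and Spearman's rho was 0.12 (permutation p = 0.715, adjusted 0.715). With the share of T and NK cells among the cells kept, r was 0.13 (permutation p = 0.684, adjusted 0.684) and rho was 0.30 (permutation p = 0.347, adjusted 0.694). Neither of these 2 relations passed the threshold. Without the 2 libraries farthest from the median on the x axis, r was 0.35 for Ifng and 0.31 for T and NK cells. Within libraries 1 to 6, r was 0.35 and 0.81 (exact permutation p = 0.528 and 0.208), and within libraries 7 to 12 it was -0.01 and 0.07 (exact permutation p = 0.969 and 0.817). Without library 4 the r with T and NK cells turned to -0.12.

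Genes were compared within each library, as the log2 ratio of summed UMIs in CPM with a pseudocount of 5 CPM, and the median over libraries is given. A gene was counted as 2-fold when this median reached 1 and its sign was the same in every library used. Since Cxcl9 and Arg1 chose the cells, these ratios describe what goes with the limits on these genes and carry no test. Cxcl9-low Arg1-low macrophages differed from Cxcl9-high macrophages by the Cxcl9 limit alone. Against Cxcl9-low Arg1-low macrophages, 7020 genes were compared in 11 libraries, with a median log2 ratio of -0.03 over all genes. Only 10 genes (0.142%) were at least 2-fold higher and 15 (0.214%) at least 2-fold lower, while 303 (4.32%) were higher and 381 (5.43%) lower by any fold in all 11 libraries.

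The 2 genes with the highest ratios, Serpina3g (chr12:104236245-104241939, plus strand, GRCm38) and Gbp2 (chr3:142620602-142638008, plus strand), are induced by IFN-γ in macrophages. Serpina3g, an intracellular protease inhibitor, was at 130 to 286 CPM (median 223) in Cxcl9-high macrophages and at 13.7 to 101 CPM (median 36.2) in Cxcl9-low Arg1-low macrophages. The ranges did not overlap, and the log2 ratio was 2.19 (1.40 to 3.43 over libraries). Gbp2, a guanylate binding protein that acts against intracellular microbes, was at 303 to 719 CPM (median 437) against 82.0 to 250 CPM (median 124). Again no library of the first kind fell within the second, and the log2 ratio was 1.69 (0.80 to 2.88). Library 5 gave the smallest ratio for both genes and library 10 the largest.

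The other genes past 2-fold were Dnase1l3, an extracellular DNase (1.43), Serpina3f (1.43), the immunity-related GTPase Iigp1 (1.25), Gbp4 (1.17), Fam26f (1.16), Slamf8 (1.10), Gbp5 (1.09) and the chemokine Ccl5 (1.05). At 2000 UMIs per cell Slamf8 (0.92), Gbp5 (0.85) and Ccl5 (0.79) were under 2-fold and 7 genes passed, and in libraries 1 to 6 Iigp1 (0.87), Gbp5 (0.93) and Ccl5 (0.58) were. Serpina3f and Serpina3g are near-identical neighbours, as are several Gbp genes, and a 3' count can divide reads between them. Next came Cxcl10 (0.97), the noncoding transcript AW112010 (0.91), the transcription factor Batf2 (0.90), Klrk1 (0.89), which encodes the receptor NKG2D, and the transporter Slco3a1 (0.87). All 15 were higher in 11 of 11 libraries.

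Some of these genes are also lymphocyte genes. Ccl5 was at 5450 CPM in gated T cells, where the T cell receptor gene Trac was at 542 CPM. In Cxcl9-high macrophages Ccl5 was at 692 CPM of pooled UMIs and Trac at 1.53 CPM, against 373 and 1.18 CPM in Cxcl9-low Arg1-low macrophages. Serpina3g was at 211 CPM in T cells and Klrk1 at 429 CPM in NK cells, where Nkg7 was at 1689 CPM, while Nkg7 stood at 3.46 and 3.03 CPM in Cxcl9-high and Cxcl9-low Arg1-low macrophages. Without cells that held any of 11 transcripts of other cell types, and without the deepest cells, the log2 ratio was 1.02 for Ccl5 and 2.26 for Serpina3g. For Ccl5 it was 0.58 in libraries 1 to 6 and 1.29 in libraries 7 to 12.

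**Figure D2:**
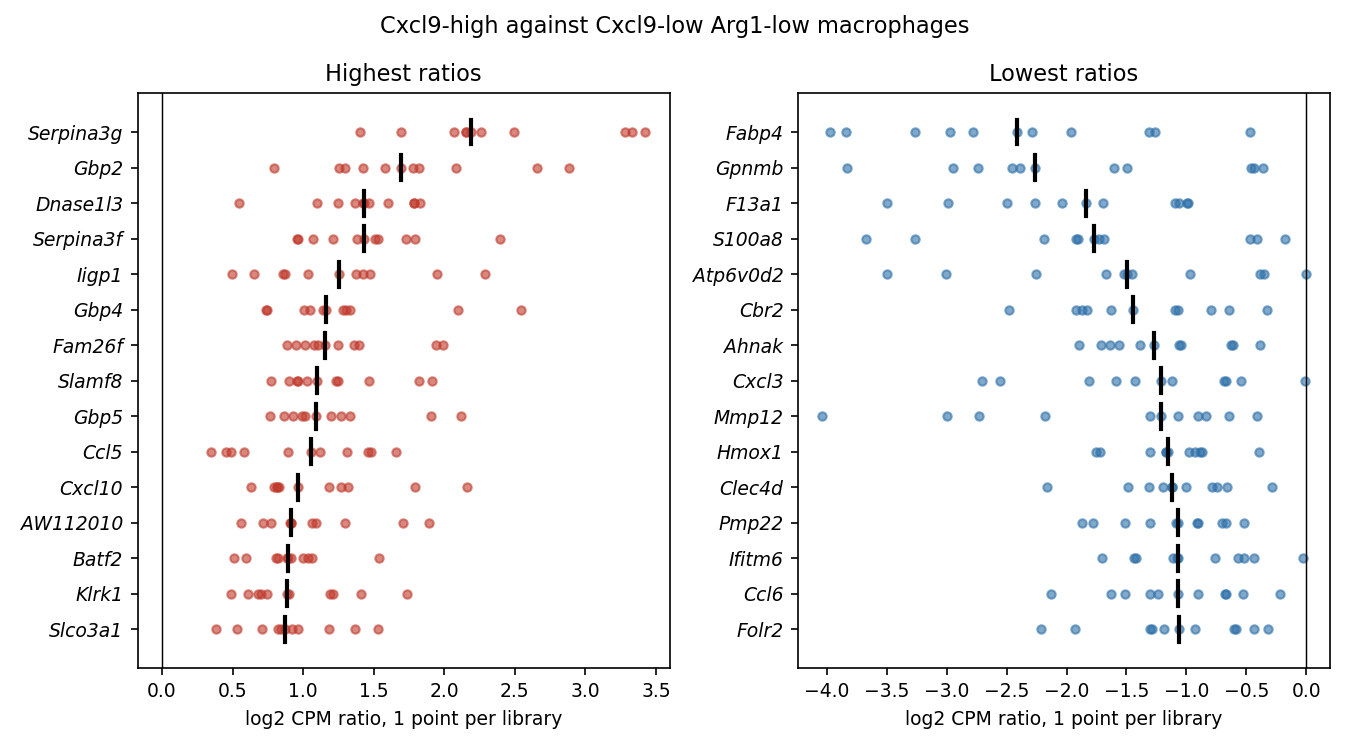
Log2 ratio of CPM between Cxcl9-high and Cxcl9-low Arg1-low macrophages for the 15 genes with the highest and the 15 with the lowest medians among genes of 1 sign in all libraries, 1 point for each of 11 libraries, the bar being the median. Serpina3g (2.19) and Gbp2 (1.69) led the genes that were higher, and Fabp4 (-2.42) and Gpnmb (-2.26) those that were lower, the latter with wide spread.

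The lowest ratios were those of Fabp4 (chr3:10204088-10208576, minus strand) and Gpnmb (chr6:49036546-49070929, plus strand). Fabp4, a fatty acid carrier, was at 0.309 to 10.5 CPM (median 4.78) against 7.70 to 169 CPM (median 41.7), and Gpnmb, a glycoprotein of lipid-laden phagocytes, at 9.96 to 68.9 CPM (median 29.0) against 41.8 to 416 CPM (median 113). Both pairs of ranges overlapped, with log2 ratios of -2.42 (-3.97 to -0.47) and -2.26 (-3.83 to -0.36). The ratios were smaller in libraries 1 to 6, at -1.31 for Fabp4 and -0.46 for Gpnmb, than in libraries 7 to 12, at -3.12 and -2.56, and that of Gpnmb was -0.67 at 2000 UMIs per cell. Coagulation factor XIII (F13a1, -1.84), the vacuolar ATPase subunit Atp6v0d2 (-1.49, and -0.38 in libraries 1 to 6), Cbr2 (-1.45), Ahnak (-1.27), Cxcl3 (-1.21), the elastase Mmp12 (-1.21), heme oxygenase Hmox1 (-1.16), Pmp22 (-1.07), Ccl6 (-1.07) and the folate receptor Folr2 (-1.06) followed. In libraries 1 to 6 the ratio was -1.10 for F13a1, and Hmox1 (-0.93), Pmp22 (-0.70), Ccl6 (-0.68) and Folr2 (-0.60) were under 2-fold. At 2000 UMIs per cell Mmp12 (-0.89), Hmox1 (-0.81), Pmp22 (-0.98) and Folr2 (-0.83) were.

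S100a8 (-1.77), Clec4d (-1.12) and Ifitm6 (-1.07) were also among these 15 genes and are expressed by neutrophils and monocytes. S100a8 was at 0.309 to 72.7 CPM (median 12.5) in Cxcl9-high macrophages against 11.9 to 356 CPM (median 47.6), and stood at 23155 CPM in gated neutrophils. The sum of all 6 neutrophil markers was lower with it (median 71.5 against 161 CPM), and its part in the result was not tested. The S100a8 ratio was -0.47 in libraries 1 to 6 and -1.91 in libraries 7 to 12, and those of Clec4d (-0.74) and Ifitm6 (-0.57) were under 2-fold in libraries 1 to 6. Clec4d was also under 2-fold at 2000 UMIs per cell (-0.88), and so were Clec4d (-0.99) and Ifitm6 (-0.91) after the stricter removal. The S100a8 ratio was 0 after the stricter removal, which takes out every cell with an S100a8 UMI.

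Interferon-induced families were higher as lists. Of 17 guanylate binding proteins and immunity-related GTPases, which coat and disrupt vacuoles that hold microbes, 13 were compared and all 13 had positive ratios, with a median of 0.64. Of these, 4 were 2-fold higher (Gbp2, Iigp1, Gbp4 and Gbp5), against 0.142% of all genes, and 12 were higher in every library, against 4.32%. The smallest ratios were those of Gbp9 (0.26) and Irgm2 (0.34). The median was 0.57 in libraries 1 to 6, 0.78 in libraries 7 to 12 and 0.46 at 2000 UMIs per cell.

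Antigen presentation was higher by smaller steps. MHC class I molecules display peptides to CD8 T cells, and TAP and the immunoproteasome supply them. All 19 genes of this pathway had positive ratios (median 0.36, and 0.21 at 2000 UMIs per cell) and 15 were higher in every library, against 4.32% of all genes, led by Tapbpl (0.54) and Tap2 (0.51), with Erap1 (0.06) and H2-D1 (0.11) the smallest. B2m, the most abundant, was at 3391 to 6360 CPM (median 4169) against 3032 to 6028 CPM (median 3701), ranges that overlapped almost wholly, with a ratio of 0.15 that was positive in 11 of 11 libraries.

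MHC class II molecules present to CD4 T cells. All 8 genes compared had positive ratios (median 0.45), and 6 of them, H2-DMa, H2-Ab1, H2-Eb1, H2-DMb1, H2-Aa and Cd74, were higher in every library, by 0.42 to 0.48, against 4.32% of all genes. Cd74, the invariant chain, was the most abundant, at 6116 to 13935 CPM (median 11690) against 3226 to 11612 CPM (median 7892). At 2000 UMIs per cell, 94.7% of the pooled Cxcl9-high macrophages held an H2-Ab1 UMI (exact 95% interval 94.1 to 95.3%, counting error only). The pooled shares were 80.2% of Cxcl9-low Arg1-low and 76.0% of Arg1-high macrophages and 36.1% of T cells. Over libraries the share was 71.4 to 98.9% (median 89.2%) in Cxcl9-high and 46.3 to 95.4% (median 76.4%) in Cxcl9-low Arg1-low macrophages, ranges that overlapped.

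IFN-γ binds a receptor of 2 chains that signals through JAK kinases. Of 15 genes of this pathway, 7 were higher in every library, against 4.32% of all genes, and none lower, against 5.43%. The median was 0.17, with 0.11 in libraries 1 to 6 and 0.29 in libraries 7 to 12. The transcription factor Batf2 (0.90) and the feedback inhibitor Socs1 (0.77) were highest. The receptor chain Ifngr1 (-0.17) and the kinase Jak1 (-0.12) were lowest, with opposite signs among libraries. Ifng itself was at 0.0776 CPM in pooled Cxcl9-high macrophages and at 91.4 CPM in T cells.

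Genes that type I interferon also induces had a median of 0.35 over 26 genes, or 0.19 at 2000 UMIs per cell. Of these, 14 were higher in every library, against 4.32% of all genes, and none was 2-fold. Ifi47 (0.54) and Isg15 (0.48), a ubiquitin-like modifier, were highest and Slfn4 (-0.45) and Oas2 (-0.13) lowest, and Bst2, the most abundant, had a ratio of 0.13. Isg15 ran from 134 to 970 CPM in Cxcl9-high macrophages (median 283) and from 78.9 to 726 CPM in Cxcl9-low Arg1-low macrophages (median 151), so that libraries differed more than the 2 kinds of cell did.

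Chemokines divided into those higher with Cxcl9 and those lower. Cxcl10, which shares the receptor CXCR3, was at 707 to 2041 CPM (median 950) against 275 to 599 CPM (median 476), without overlap. Ccl5 was at 352 to 1100 CPM (median 694) against 233 to 703 CPM (median 292), and Cxcl16 was the third to be higher in every library (0.25, a gene chosen after its value was seen). Of the 16 compared, 3 were higher in every library, against 4.32% of all genes, and 8 were lower, against 5.43%. Those lower included Cxcl3 (-1.21) and Ccl6 (-1.07), and the median of the list was -0.33. Cxcl2, a neutrophil attractant, was at 520 to 1412 CPM (median 883) against 746 to 1939 CPM (median 1379).

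**Figure D3:**
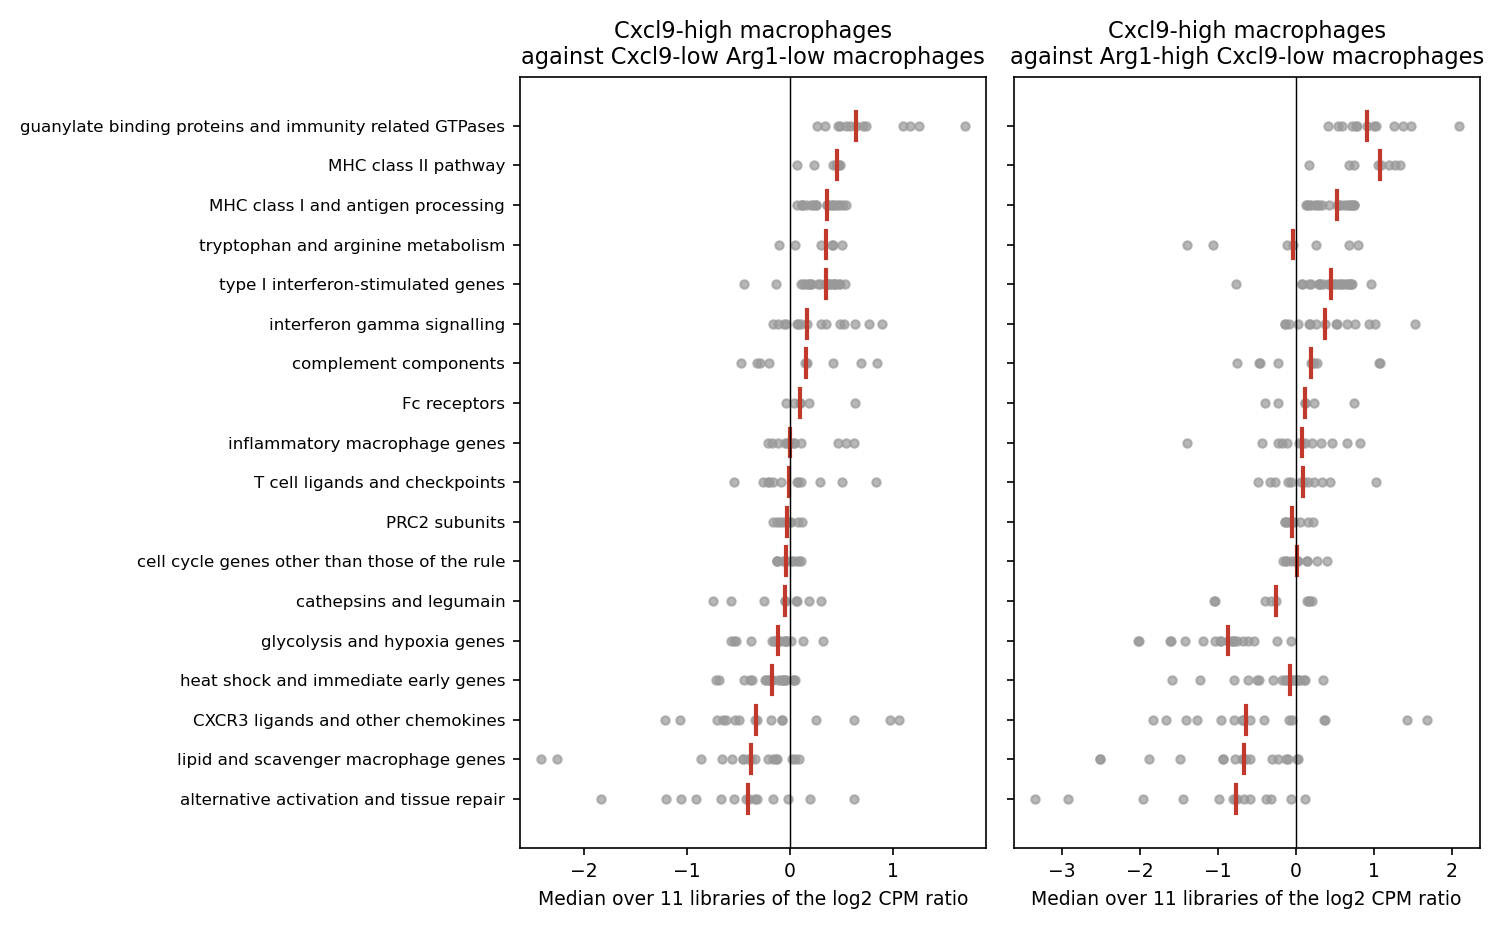
Median log2 CPM ratio over 11 libraries for each compared gene (grey points) of 18 gene lists, with the list's median (red bar), against Cxcl9-low Arg1-low (left) and Arg1-high (right) macrophages. Guanylate binding proteins (0.64 and 0.91) and MHC class II genes (0.45 and 1.07) lay to the right, and alternative activation genes (-0.41 and -0.77) to the left.

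Among 12 T cell ligands and checkpoints compared (median -0.01), the costimulatory receptor Cd40 stood out at 68.4 to 124 CPM (median 88.9) against 30.4 to 62.5 CPM (median 45.7). Its ranges did not overlap, and the log2 ratio was 0.83. Cd274, which encodes PD-L1, was at 66.4 to 145 CPM (median 109) against 35.2 to 125 CPM (median 72.0), with a ratio of 0.50. Tnfsf9, the 4-1BB ligand (-0.54), and Vsir, the checkpoint VISTA (-0.27), were lower in every library.

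Inflammatory genes had a median of -0.00 over 13 genes, beside -0.03 over all genes. Of these 13, 3 were higher in every library, against 4.32% of all genes, and 1 was lower, against 5.43%. The cytokine antagonist Il18bp (0.62) and the itaconate enzyme Acod1 (0.55) were highest, and Nfkbia (-0.21) and Ptgs2 (-0.17) lowest. Il1b, the most abundant, was at 1233 to 4123 CPM (median 2029) against 1545 to 3796 CPM (median 2161), with higher values in 4 of 11 libraries. Nos2, the nitric oxide synthase of classically activated macrophages, was at 1.59 to 10.8 CPM (median 6.53). At 2000 UMIs a Nos2 UMI was found in 1.13% of the cells (exact 95% interval 0.872 to 1.45%). The share was 0.668% in Cxcl9-low Arg1-low macrophages, 3.51% in Arg1-high macrophages and 0.312% in T cells. Ido1, an IFN-γ target in many cells, had a median of 0 CPM and at most 0.795 CPM.

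Of 10 complement genes, 4 were higher and 3 lower in every library, against 4.32% and 5.43% of all genes. C3, the central complement component, was at 80.5 to 252 CPM (median 188) against 41.6 to 136 CPM (median 90.4), and factor B (Cfb) at 115 to 315 CPM (median 184) against 68.2 to 157 CPM (median 131), with ratios of 0.84 and 0.69. The most abundant, C1qa, was at 4043 to 7880 CPM (median 7052) against 3804 to 6941 CPM (median 6126), with a ratio of 0.16. The anaphylatoxin receptor C5ar1 (-0.48) and properdin, Cfp (-0.32), were lower, and the median of the list was 0.15. Of 6 Fc receptors, 3 were higher in every library and none lower, against the same 4.32% and 5.43% of all genes. Fcgr4, which binds IgG2 subclasses, had the largest ratio (0.63, median of the list 0.09). The enzyme of arginine synthesis Ass1 was at 36.4 to 294 CPM (median 97.5) against 30.1 to 174 CPM (median 66.2), higher in every library (0.50), in a list of 6 genes of tryptophan and arginine metabolism with a median of 0.35.

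Genes of alternative activation and repair were lower as a group. Of 14 compared, 3 were 2-fold lower (F13a1, Mmp12 and Folr2), 7 were lower in every library and none was higher in every library, with a median of -0.41, against 0.214% and 5.43% of all genes for the lower calls. The mannose receptor Mrc1 was at 47.7 to 251 CPM (median 151) against 128 to 330 CPM (median 281), ranges that overlapped, with a log2 ratio of -0.54 (a gene chosen after its value was seen). Thbs1, the most abundant, had a ratio of -0.43. The eosinophil chemokine Ccl24 had a positive ratio of 0.62, in 9 of 11 libraries.

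Lipid and scavenger genes had a median of -0.38 over 17 genes, with 2 that were 2-fold lower (Fabp4 and Gpnmb) and 5 lower in every library, against 0.214% and 5.43% of all genes. Apoe, which ranked first in level, was at 10098 to 30376 CPM (median 16972) against 12363 to 31921 CPM (median 19872), with a ratio of -0.13 and both signs among libraries. Npc2 was the 1 gene of this list that was higher in every library, by 0.08, against 4.32% of all genes. Cathepsins had a median of -0.05 over 9 genes, where Ctsl (-0.75) and Ctsd (-0.57) were lower in every library and Ctsc (0.30) and Ctsz (0.19) higher.

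The lists for cell cycle (median -0.04 over 12 genes), heat shock and immediate early genes (-0.18 over 21), and glycolysis and hypoxia (-0.12 over 18) held no gene at 2-fold. In the second of these, 5 genes were lower in every library, against 5.43% of all genes, the largest difference that held in all 11 being Hspa1b (-0.69). PRC2 subunits had a median of -0.03 over 9 genes with none of 1 sign in every library. Ezh2, the target of EZH2i, was at 16.4 to 28.5 CPM (median 22.8) against 17.5 to 29.1 CPM (median 21.5), with a log2 ratio of 0.01. An Ezh2 UMI was found in 5.60% of Cxcl9-high macrophages and 5.04% of Cxcl9-low Arg1-low macrophages at 2000 UMIs, against 11.8% of T cells.

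The differences were wider against Arg1-high macrophages, which the limits on both Cxcl9 and Arg1 set apart from Cxcl9-high macrophages. Of 7041 genes, 33 (0.469%) were at least 2-fold higher and 75 (1.07%) at least 2-fold lower, and 618 (8.78%) were higher and 798 (11.3%) lower by any fold in all 11 libraries, around a median log2 ratio of -0.02. The highest were again Serpina3g (2.68), Dnase1l3 (2.34), Fam26f (2.31), Gbp2 (2.09), Ccl5 (1.68, and 0.92 in libraries 1 to 6), Serpina3f (1.66), Tlr12 (1.65), Slamf8 (1.64), the MHC class II transactivator Ciita (1.53) and the lectin Klrb1b (1.50). Ciita was at 38.3 to 104 CPM (median 64.1) against 1.96 to 45.0 CPM (median 19.9), ranges that met only at their ends. These comparisons share the Cxcl9-high cells with those above, so that the 2 sets of ratios are not independent.

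MHC class II genes differed from Arg1-high macrophages by at least 2-fold in 5 of 8 genes, against 0.469% of all genes, with a median log2 ratio of 1.07, led by H2-Eb1 (1.34) and H2-Ab1 (1.28). H2-Ab1 was at 2964 to 7553 CPM (median 5835) against 740 to 4352 CPM (median 2586). The median of the list was 0.74 in libraries 1 to 6 and 1.12 in libraries 7 to 12. Guanylate binding proteins had a median of 0.91 with 5 of 13 at 2-fold, MHC class I genes 0.52 with 16 of 19 higher in every library, IFN-γ signalling genes 0.38 with 9 of 15 and type I interferon-stimulated genes 0.45 with 15 of 25, where 8.78% of all genes were higher in every library.

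On the lower side, Mmp12 was at 12.5 to 152 CPM (median 39.2) against 98.9 to 1078 CPM (median 427) in Arg1-high macrophages, a log2 ratio of -3.35 (-5.50 to -1.85). Spp1, the matricellular protein osteopontin, was at 236 to 799 CPM (median 484) against 1008 to 8292 CPM (median 1880), without overlap, with a ratio of -2.51, or -1.19 in libraries 1 to 6. F13a1 (-2.92), Gpnmb (-2.52), Atp6v0d2 (-2.35), Hmox1 (-2.26), Emp1 (-2.07), Bnip3 (-2.03), Egln3 (-2.02) and Pmp22 (-1.96) completed the 10 lowest. In libraries 1 to 6 the ratio was -1.71 for Gpnmb and -1.54 for Atp6v0d2, and the others ran from -2.88 for F13a1 to -1.63 for Pmp22.

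Glycolysis and hypoxia genes were lower as a list. Of 19 compared, 7 were 2-fold lower and 17 were lower in every library, with a median of -0.87, against 1.07% and 11.3% of all genes. Bnip3, a mitophagy receptor that hypoxia induces, was at 26.5 to 75 CPM (median 40.4) against 114 to 300 CPM (median 188), without overlap. Gapdh, the most abundant, was at 1648 to 2717 CPM (median 2297) against 2480 to 4667 CPM (median 3998), with a ratio of -0.67. Hif1a (-0.07) and Pfkp (-0.24) were the exceptions, with both signs among libraries. The same list had differed by -0.12 from Cxcl9-low Arg1-low macrophages, which share the low Arg1 limit.

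Alternative activation and repair genes had a median of -0.77 against Arg1-high macrophages (4 of 14 at 2-fold, 8 lower in every library), and lipid and scavenger genes -0.66 (4 of 17, and 11), where 1.07% and 11.3% of all genes were called. Nos2 was lower too, at a median of 6.53 CPM against 15.1 to 58.2 CPM (median 29.5), with a log2 ratio of -1.40 and no overlap. The cationic amino acid transporter Slc7a2, which imports arginine, was 2-fold lower (-1.07). The chemokine median was -0.63, with Ccl5 and Cxcl10 2-fold higher and 4 of 16, led by Cxcl3 (-1.83), 2-fold lower. Of all genes, 0.469% were 2-fold higher and 1.07% 2-fold lower, which also applies to the genes named next. T cell ligands (0.09), inflammatory genes (0.08), tryptophan and arginine metabolism (-0.04), complement (0.20), Fc receptors (0.12), cathepsins (-0.25), cell cycle (0.01), heat shock and immediate early genes (-0.07) and PRC2 subunits (-0.05) had smaller medians. Among these, Cd40 (1.03), C3 (1.08) and Cfb (1.07) were 2-fold higher, while Ctsl (-1.05), Ctsd (-1.04), Hspa1b (-1.59) and Hspa1a (-1.23) were 2-fold lower, and Cd274, at 0.07, had both signs among libraries.

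**Figure D4:**
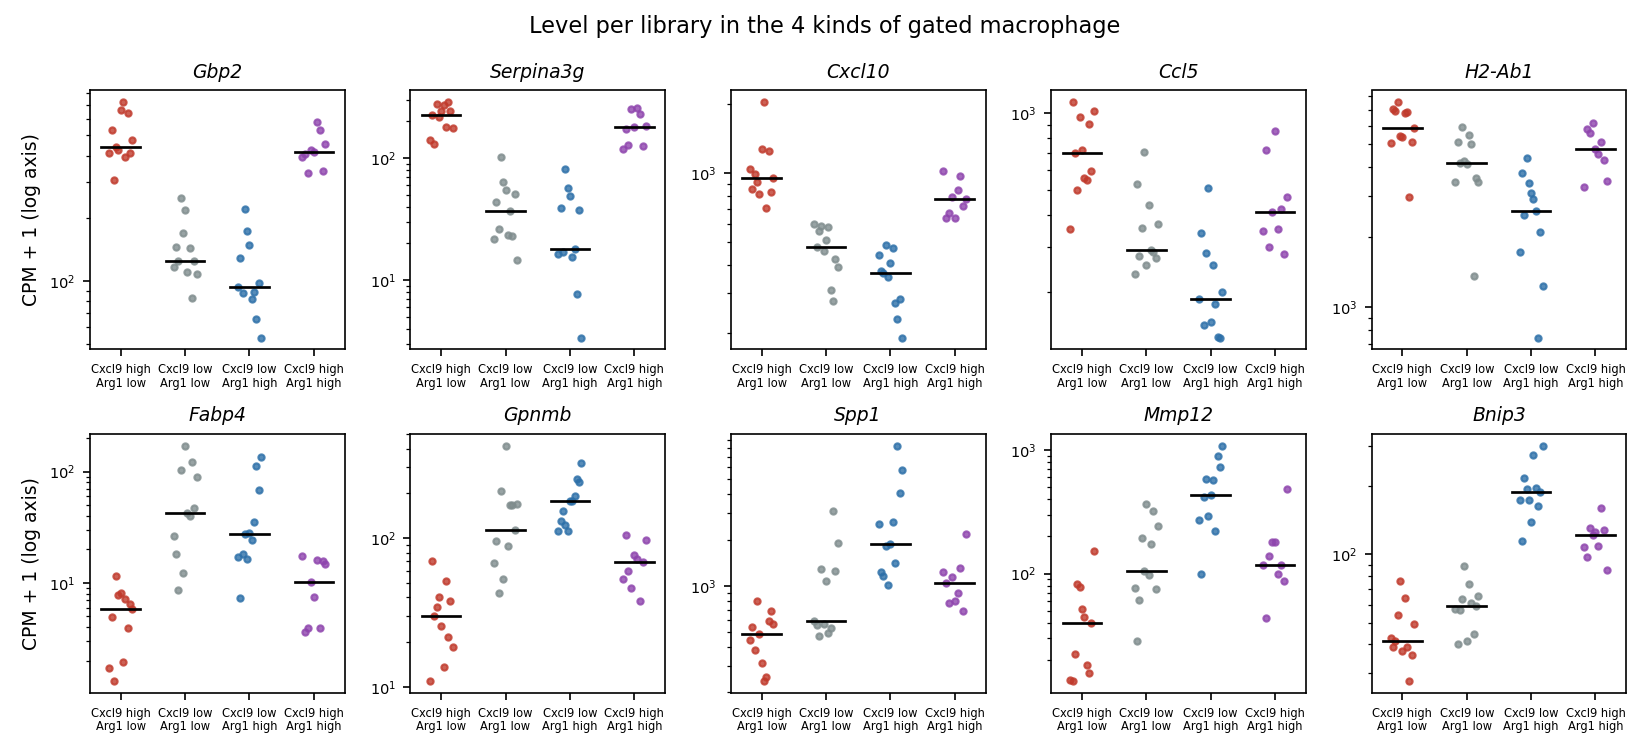
Level of 10 genes in CPM, plus 1 on a log axis, with 1 point for each library with at least 50 cells of that kind and a bar at the median, in the 4 kinds of gated macrophage set by the Cxcl9 and Arg1 limits. Gbp2 had medians of 437 and 417 CPM in both Cxcl9-high kinds and 124 and 92.5 CPM in both Cxcl9-low kinds, while Bnip3 was highest in Arg1-high Cxcl9-low cells, at 188 CPM.

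Macrophages above both limits were set beside the Cxcl9-high macrophages after the data had been seen, in the 9 libraries with at least 50 of both. Only the Arg1 limit set these kinds of cell apart, so the ratios describe what goes with a low Arg1 count. Of 6987 genes, 1 (0.0143%) was at least 2-fold higher in Cxcl9-high macrophages and 13 (0.186%) at least 2-fold lower, and 263 (3.76%) were higher and 342 (4.89%) lower in all 9 libraries. Interferon-induced genes had ratios nearer to 0. Gbp2 was at 303 to 719 CPM over 11 libraries of Cxcl9-high macrophages against 329 to 580 CPM over these 9, with a log2 ratio of 0.06. The medians were 0.11 for guanylate binding proteins, 0.12 for MHC class I, 0.22 for MHC class II, 0.18 for type I interferon-stimulated genes and 0.07 for IFN-γ signalling. Higher in all 9 libraries were 1 of 14 guanylate binding proteins, 7 of 19 MHC class I, 5 of 8 MHC class II, 7 of 25 type I interferon-stimulated and 1 of 15 IFN-γ signalling genes, against 3.76% of all genes. Lower in Cxcl9-high macrophages were Mmp12 (-1.46), Spp1 (-1.42), fibronectin Fn1 (-1.40), Ccl24 (-1.31), F13a1 (-1.29) and Bnip3 (-1.26). Of these, Bnip3 was under 2-fold at 2000 UMIs per cell (-0.87), Spp1 in libraries 1 to 6 (-0.95) and F13a1 in libraries 7 to 12 (-0.96). In all, 17 of 18 glycolysis and hypoxia genes were lower in all 9 libraries (median -0.57), against 4.89% of all genes. The 1 gene at 2-fold on the higher side was Ighm (1.01), at 55.6 to 108 CPM over 11 libraries against 16.1 to 57.5 CPM over 9. The count was 0 without library 7, 8, 9 or 11, in libraries 1 to 6, and after stricter doublet removal. It was also 0 with UMIs summed over libraries and with a pseudocount of 20 CPM. Leaving cells with any Arg1 UMI out of the Cxcl9-high macrophages gave 0 as well. The Ighm ratio was 0.88 at 2000 UMIs per cell. It was at 47.0 to 111 CPM in Cxcl9-low Arg1-low macrophages and at 12431 CPM in B cells, whose markers Cd79a and Ms4a1 had medians under 1 CPM here.

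Within the Arg1-low gate, levels were followed over the number of Cxcl9 UMIs with each cell at 2000 UMIs and no Arg1 UMI, in the 6 libraries with at least 30 cells in each class. Over all 12 libraries the classes held from 11970 cells with 0 Cxcl9 UMIs to 521 cells with 9 or more. Gbp2 had medians over libraries of 157, 204, 308, 369, 561 and 853 CPM at 0, 1, 2, 3 to 4, 5 to 8 and 9 or more Cxcl9 UMIs. Every step of the median was upwards, and the ranges of the first class (110 to 242 CPM) and the last (710 to 1194 CPM) did not overlap. Serpina3g ran from 41.7 to 385 CPM, Cxcl10 from 489 to 1430 CPM and Dnase1l3 from 39.3 to 249 CPM between the same classes, each with a higher median at every step. Iigp1 went from 97.2 to 345 CPM and Ccl5 from 340 to 752 CPM, both with a lower median at 5 to 8 than at 3 to 4 Cxcl9 UMIs, and the ranges of Ccl5 in the first class (171 to 637 CPM) and the last (387 to 1561 CPM) overlapped.

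The summed level of the guanylate binding protein list stood at log2 ratios of 0.21, 0.54, 0.71, 1.02 and 1.62 over the class with 0 Cxcl9 UMIs. MHC class II genes stood at 0.31 with 1 Cxcl9 UMI and at 0.68 with 9 or more, and H2-Ab1 went from 3899 to 7162 CPM. Type I interferon-stimulated genes stood at 0.30 in the last class and alternative activation genes at -0.56. The lipid and scavenger list stood at -0.02 in the last class (-0.15 to 0.09 over libraries), on its summed level, which abundant genes weigh most. Adgre1 (557 and 540 CPM) and Csf1r (857 and 845 CPM), which the gate used, lay close together in the first and the last class. Each cell had to hold at least 2 of their UMIs among 2000, which sets a floor to their level. At the cells' own depth the Adgre1 log2 ratio against Cxcl9-low Arg1-low macrophages was -0.58 to -0.04 over libraries. Folr2 went from 32.2 to 9.55 CPM, a level at which 1 UMI in 2000 weighs much, and its ranges overlapped. The cells of a class share their library and its free RNA, and these levels are a description.

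**Figure D5:**
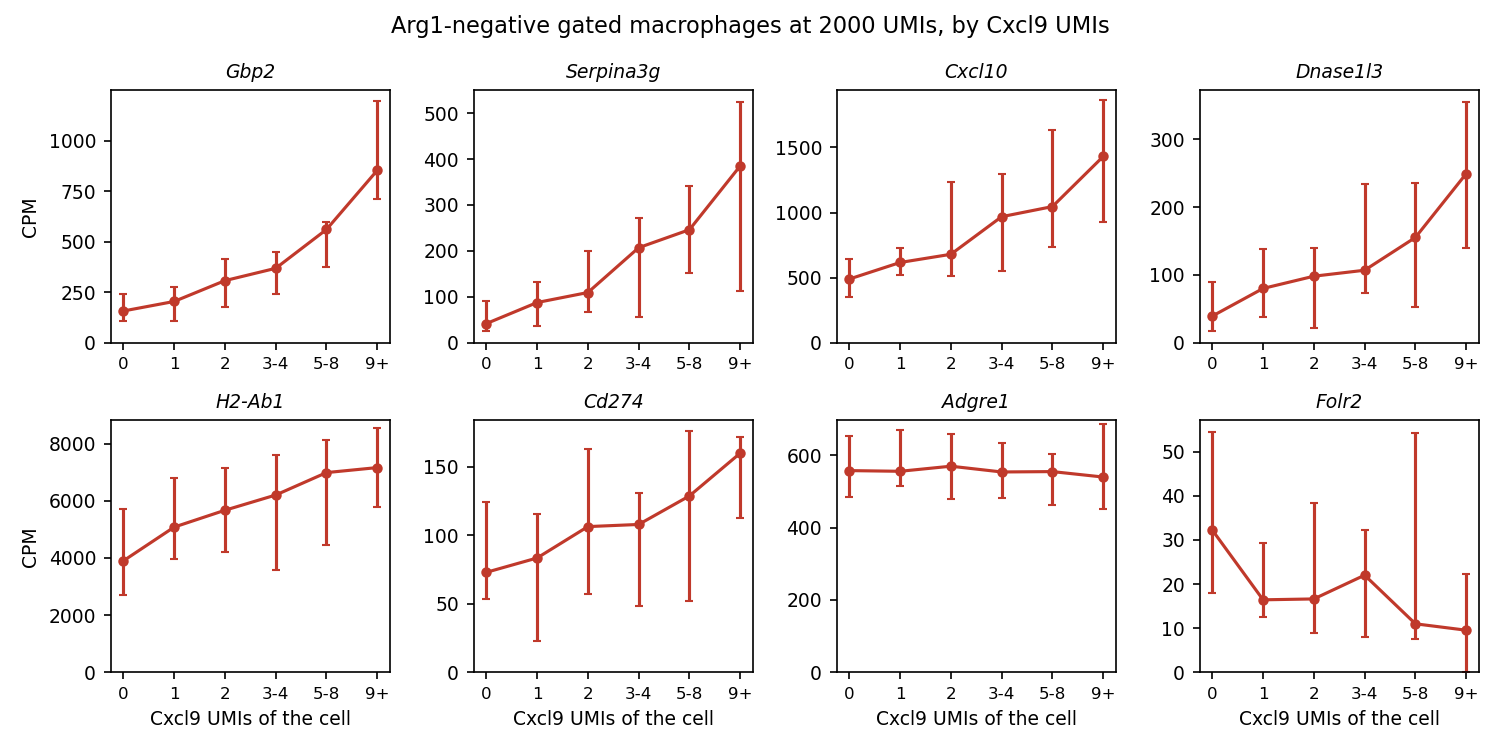
Level of 8 genes in CPM by the number of Cxcl9 UMIs in gated macrophages with no Arg1 UMI, each cell thinned to 2000 UMIs. Points are medians and bars ranges over 6 libraries (1, 2, 3, 5, 6 and 9). Gbp2 went from 157 to 853 CPM and Serpina3g from 41.7 to 385 CPM. Adgre1, a gene of the gate, had medians of 540 to 569 CPM.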

How the data were processed

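CD45+ cells of 12 MC38 tumors were measured by scRNA-Seq. The authors deposited 1 pooled matrix of raw UMI counts, 31053 genes by 140639 barcodes, on mm10. The submitters' processing notes name Cell Ranger 2.1.1 and Seurat, and the matrix header names Cell Ranger 3.0.2. Treatment groups come from the labels, but no label or file header ties libraries 1 to 12 to samples, so no library was used as a replicate of a group, the planned comparison of EZH2i with vehicle was not made, and values are given per library. Where nothing else is said, a range is the lowest and highest library.

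The members, gene lists and tests were chosen with earlier results of these data known. UMIs were summed per library and kind of macrophage and scaled to CPM of all UMIs, without doublet calling beyond the Cd3 condition. Ratios used libraries with at least 50 cells of both kinds and genes whose 2 median CPM averaged at least 10, without the genes of the rule. Genes were named by rule: in each list the most abundant and the 2 furthest from 0 in each direction; the 15 highest and 15 lowest against Cxcl9-low Arg1-low macrophages and the 10 and 10 against Arg1-high macrophages among genes of 1 sign in every library; the genes of the rule; and Ezh2. Others were chosen after their values were seen, as were all genes of the comparison with macrophages above both limits. Intervals are exact binomial (Clopper-Pearson) and, like counts of UMIs, cover counting error only. Correlations used two-sided permutation tests, with 100000 resamples over 12 libraries, and Benjamini-Hochberg adjustment over the 2 relations. Scripts ran in Python 3.11.15 with pandas 2.3.3, numpy 2.4.6, matplotlib 3.10.9 and scipy 1.17.1 and were tested on simulated data. Alternatives were other limits on Cxcl9, Arg1, Adgre1 and Csf1r and mitochondrial UMIs, other pseudocounts and filters, thinning, stricter doublet removal, pooled UMIs, library sets and each library left out. Some genes are not reported here.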

Additional observations from a re-analysis of the deposited data

How the results depend on the processing

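Over the alternatives run, list medians kept their sign in 473 of 494 cases against Cxcl9-low Arg1-low macrophages, 462 of 475 against Arg1-high macrophages and 419 of 437 against macrophages above both limits. Ratios of named genes kept it in 795 of 806, 525 of 525 and 483 of 483. These genes, other than Ezh2, had been chosen for having 1 sign in every library. Leaving out libraries or using a set of them could therefore not turn their sign, and those counts were partly fixed by the choice. Against Cxcl9-low Arg1-low macrophages 487 of 494 list medians moved by less than the spread between libraries, as did 793 of 806 ratios of named genes. Against Arg1-high macrophages the counts were 475 of 475 and 509 of 525, and against macrophages above both limits 429 of 437 and 474 of 483. The numbers of genes at 2-fold were less stable. Of genes lower than in Cxcl9-low Arg1-low macrophages, 15 were counted at the stated settings, 6 with at least 4 UMIs of Adgre1 and Csf1r, 6 after thinning to 2000 UMIs, 7 with a pseudocount of 20 CPM, 6 with a filter at 50 CPM, 30 with UMIs summed over libraries, 5 in libraries 1 to 6 and 25 in libraries 7 to 12. Of genes higher there were 10, and 5 with a pseudocount of 20 CPM. Against Arg1-high macrophages the 33 genes higher became 18 with a pseudocount of 20 CPM, 21 with a filter at 50 CPM and 21 in libraries 1 to 6. The 75 genes lower became 35, 40 and, in libraries 7 to 12, 128. Leaving out each library in turn gave 9 to 11 genes higher and 12 to 18 lower than in Cxcl9-low Arg1-low macrophages, and 30 to 34 higher and 74 to 80 lower than in Arg1-high macrophages. A larger pseudocount shrinks ratios of low genes and a higher filter tests fewer genes by construction, and for the other changes the cause was not tested. With no Arg1 limit the median share of Cxcl9-high cells was 17.9%. The correlation of the share with Ifng turned to r = -0.00987 and rho = -0.486 in libraries 7 to 12, and that with T and NK cells to r = -0.122 without library 4 and rho = -0.0857 in libraries 7 to 12. No paired analysis was possible because no library is tied to a numbered sample. Library 4, with 40 members, was too small for the gene comparisons.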
